A study of Caenorhabditis elegans with 2 samples.

Results

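Binding of FOS-1 was examined at 5 genes of the inositol trisphosphate (IP3) pathway of the spermatheca, out of 19973 protein-coding genes on the nuclear chromosomes: let-23, plc-1, itr-1, lfe-2 and ipp-5. The genes were chosen by name for their place in this pathway. Every peak summit in the gene body and in the 5000 bp to each side, called the locus here, was then collected. Caenorhabditis elegans of mixed sex at L4, the larval stage before adulthood, were assayed whole by chromatin immunoprecipitation and sequencing (ChIP-seq), in 2 biological replicates. Both replicates came from strain OP304, genotype unc-119(ed3) III; wgIs304, in which the inserted transgene wgIs304 carries FOS-1 tagged with eGFP. They formed 1 group, and no value below carries a test between conditions. Whole animals were used, so a region cannot be assigned to the spermatheca or any other tissue, and a weak region present in few cells cannot be told apart from one that is weak in many.

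The spermatheca is the contractile tube that stores sperm and that each oocyte enters and leaves at ovulation. In the known pathway the EGF-like ligand LIN-3 activates the receptor LET-23 there, a phospholipase C makes IP3 from a membrane lipid, and IP3 opens a calcium channel of the endoplasmic reticulum. FOS-1 belongs to the Fos family of basic leucine zipper factors, which bind DNA with Jun partners at AP-1 sites, and fos-1 and jun-1 are known from genetic work to act in ovulation through expression of plc-1.

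The authors' lists for the ce11 genome ranged from strict to permissive. The set that passed the irreproducible discovery rate (IDR), a filter on how well replicates rank the same regions, held 248 regions. The list called on both replicates pooled held 1 region per 28430 bp of the nuclear genome, and the single-replicate lists held 30000 for replicate 1 and 29345 for replicate 2. Regions were ranked here by the signal that the authors' peak caller gave them, so rank 1 is the strongest of its list, and signals were not compared between lists. The permissive lists hold background as well as peaks: only 279 pooled regions had a −log10 q-value of at least 1.3, and the pooled median was 0.131.

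No region of the IDR set lay in any of the 5 loci, beside 3.46% of all protein-coding genes that had at least 1. At the density of that set, 0.352 regions would be expected in the 142306 bp of the 5 loci together, so a count of 0 was also the most likely one at that density, and its exact Poisson 95% upper limit is 3.69 regions. The pooled list placed a region in 3 of the 5 loci, lfe-2, plc-1 and let-23, beside 33.8% of all genes. All 5 loci held regions of both single-replicate lists, as did 95.5% of all genes for replicate 1 and 94.6% for replicate 2, so presence in those lists sets no gene apart. The 5 loci were 13047 to 53794 bp long, beside a median of 12027 bp over all genes, so counts are given next to the number expected from each list's density over the same length.

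The 5 loci together held 7 pooled regions, with an exact Poisson 95% interval of 2.81 to 14.4, beside 5.01 expected. Replicate 1 gave 39 regions (27.7 to 53.3) beside 42.6 expected. Replicate 2 gave 45 regions (32.8 to 60.2) beside 41.6 expected. The intervals cover counting error only, and each of the 3 totals had its expected number inside its interval. The lfe-2 locus, with 4 pooled regions (1.09 to 10.2) beside 0.844 expected, was the only 1 of the 5 whose pooled interval lay wholly above its expected number.

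**Figure D1:**
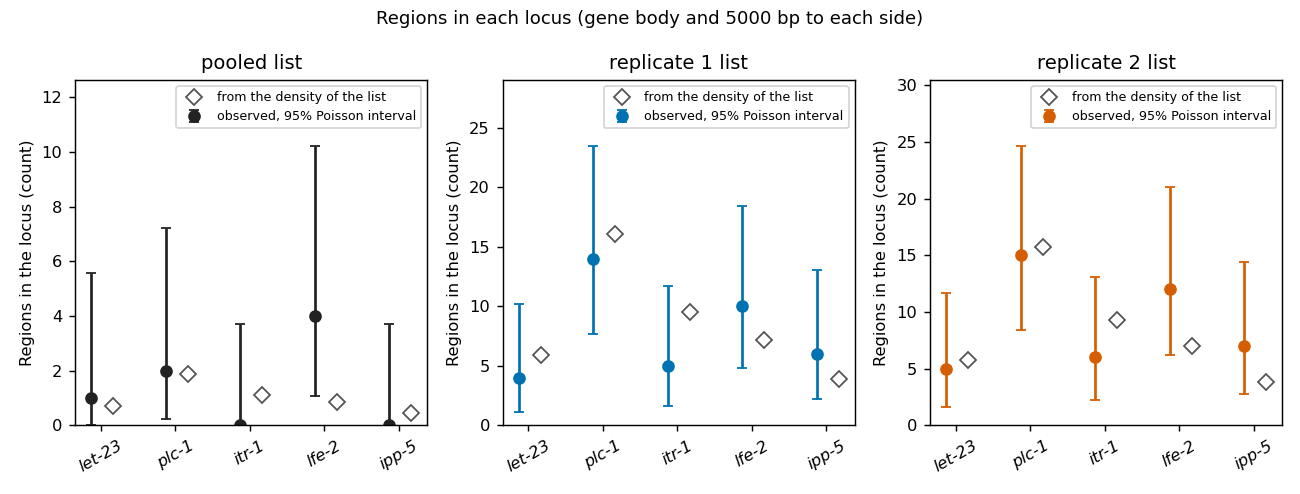
Number of regions (vertical axes) in each locus for the pooled list and both single-replicate lists, 1 panel a list. Points are counts with exact Poisson 95% intervals as bars, and the marks beside them are the numbers expected from the density of each list. Only lfe-2 in the pooled list, at 4 regions, has an interval that lies above its expected number.

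let-23 (WBGene00002299) encodes the EGF receptor, the entry point of the pathway. It lies on the + strand at chrII:9197512-9207213 and has 19 exons, 4 annotated transcripts and as many 5' ends. Its locus held 1 pooled region, 4 of replicate 1 and 5 of replicate 2, beside 0.693, 5.89 and 5.76 expected. The pooled region, chrII:9201334-9201677, was the best ranked of the 5 loci at rank 650, with a signal of 24.4 and a −log10 q-value of 0.589. Its signal was above the pooled median of 19.3, but the region was not in the IDR set. Its summit lay in coding exon 11, 3994 bp into the gene and 2317 bp from the nearest annotated 5' end. A replicate 1 summit lay 36 bp away at rank 9170, and a replicate 2 summit 20 bp away at rank 1532, so both libraries placed a region there, of very different rank. The 201 bases centred on the pooled summit are shown because this was the best ranked pooled region of the 5 loci. They run 5' to 3' on the + strand of ce11 at chrII:9201406-9201606, with coding bases in capitals.
let-23 exon 11 summit: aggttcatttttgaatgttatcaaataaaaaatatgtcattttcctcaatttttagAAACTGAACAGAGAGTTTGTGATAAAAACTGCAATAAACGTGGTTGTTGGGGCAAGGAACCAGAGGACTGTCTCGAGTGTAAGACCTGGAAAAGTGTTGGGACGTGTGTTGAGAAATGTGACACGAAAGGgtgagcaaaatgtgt
Coding sequence made up 130 of these 201 bases. GC content was 37.8%, beside 35.6% over the windows of all pooled regions.

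The best rank of replicate 1, 759 with a signal of 14.1, belonged to chrII:9206266-9206635 in intron 18. The nearest summit of replicate 2 was 531 bp from it, at rank 23771, and the nearest pooled summit was 4945 bp away. At the end of the gene the replicate 1 summit in the 3' UTR (rank 2870, signal 10.6) and a replicate 2 summit just beyond it (rank 1923, signal 12.2) were 126 bp apart. This was 1 of only 2 places in the 5 loci where both libraries had a summit within 200 bp and both ranked among as many regions of their lists as the pooled list holds, yet the pooled list had none there. The only summit in a let-23 promoter, which runs here from 1000 bp before an annotated 5' end to 200 bp past it, was of replicate 2, 48 bp upstream of an internal 5' end, at rank 16844. Past the gene, each library had a summit in the promoter of ZK1067.4, at rank 29372 in replicate 1 and rank 17633 in replicate 2, 295 bp apart.

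plc-1 (WBGene00004036) encodes phospholipase C-epsilon, which cleaves the membrane lipid to give IP3. It lies on the − strand at chrX:10794857-10838650, the longest gene of the 5, with 65 exons and 12 transcripts from 4 annotated 5' ends. Its locus held 2 pooled regions, 14 of replicate 1 and 15 of replicate 2, beside 1.89, 16.1 and 15.7 expected, so the counts followed the length of the gene. The better ranked pooled region, chrX:10789888-10790231 (rank 2335, signal 18.1), lay past the 3' end of plc-1, in coding exon 10 of vap-2. Replicate 2 had its best rank of the locus there, 668 with a signal of 15.1, 33 bp from the pooled summit, and the nearest replicate 1 summit was 522 bp away at rank 1255. This region therefore cannot be tied to plc-1 by position. The pooled region within plc-1, chrX:10808154-10808497 (rank 2426, signal 18), was at intron 41, 3379 bp downstream of the 5' end of a short transcript. Replicate 1 had a summit 68 bp away at rank 2801 and replicate 2 had one 16 bp away at rank 13291. Both plc-1 regions ranked in the lower part of the pooled list, with signals under its median. The 201 bases at the summit inside the gene, chrX:10808226-10808426, are given 5' to 3' on the − strand, the strand of the gene, with coding bases in capitals, because this is the only pooled summit in the body of plc-1.
plc-1 intron 41 summit: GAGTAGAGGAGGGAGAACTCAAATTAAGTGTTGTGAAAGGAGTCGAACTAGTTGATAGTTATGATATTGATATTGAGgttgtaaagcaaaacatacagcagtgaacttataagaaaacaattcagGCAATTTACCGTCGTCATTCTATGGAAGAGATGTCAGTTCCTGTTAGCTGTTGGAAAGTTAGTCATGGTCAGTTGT
The lower-case stretch inside the run is intron 41, a short intron between coding exons, and 153 of the 201 bases were coding.

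The best rank of replicate 1 in the plc-1 locus, 1163 with a signal of 12.9, belonged to chrX:10818543-10818912 in intron 28. The nearest replicate 2 summit was 417 bp off at rank 7526. In intron 1 the libraries had summits 69 bp apart, at ranks 15984 and 18501, with no pooled region within 200 bp. Of 29 single-replicate summits in the locus, 1 lay in a plc-1 promoter, and it was of replicate 1. The plc-1 gene body did hold AP-1 consensus sites, TGAGTCA or TGACTCA, which are reverse complements of each other, so that 1 search covers both strands. There were 10 in the locus, all within the gene body, beside 5.14 expected from the 9580 sites of the nuclear genome. The 2 in the first introns of the gene and the 1 in a 5' UTR are shown, as those in its 5' sequence, with 12 bases to each side, on the + strand of ce11, with the site in capitals.
plc-1 intron 1, chrX:10836736-10836742: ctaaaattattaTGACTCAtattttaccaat
plc-1 intron 2, chrX:10832957-10832963: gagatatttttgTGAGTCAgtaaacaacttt
plc-1 5' UTR of a short transcript, chrX:10811670-10811676: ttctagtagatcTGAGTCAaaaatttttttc
The intron 1 site lay 341 bp from the nearest replicate 1 summit and 305 bp from the nearest replicate 2 summit, at ranks 13565 and 18501. The 5' UTR site, 32 bp inside its transcript, lay 362 bp from a replicate 1 summit of rank 28131 and 1995 bp from any replicate 2 summit. The intron 2 site was 1035 bp and 3474 bp from the nearest summits of replicates 1 and 2. None of the 10 sites of plc-1 was within 100 bp of a summit in any list. The closest approach was 166 bp, in intron 50, to a replicate 1 summit of rank 27354.

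itr-1 (WBGene00002173) encodes the IP3 receptor, the channel that lets calcium out of the endoplasmic reticulum. It lies on the + strand at chrIV:7675174-7696930, with 33 exons and 6 transcripts from 5 annotated 5' ends. Its locus held no pooled region, 5 of replicate 1 and 6 of replicate 2, beside 1.12, 9.5 and 9.29 expected. The nearest pooled summit was 8408 bp outside the gene body, at rank 1388. The best replicate 1 region, chrIV:7679910-7680279 (rank 2358, signal 11), was in intron 2, and replicate 2 had its nearest summit 401 bp away at rank 18464. The best replicate 2 region, chrIV:7675102-7675465 (rank 4371, signal 10.2), covered the first 5' end of the gene, with its summit 110 bp inside it, but the nearest replicate 1 summit was 4192 bp away. The only summits of the libraries within 200 bp of each other were 5 bp apart in coding exon 27, at rank 28788 in replicate 1, near the bottom of that list, and 6760 in replicate 2. An AP-1 consensus site lay in intron 1, 610 bp from the first 5' end and 500 bp from the promoter summit of replicate 2. It is shown as the site closest to an itr-1 5' end, on the + strand, with the site in capitals.
itr-1 intron 1, chrIV:7675781-7675787: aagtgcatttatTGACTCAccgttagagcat
The locus held 1 further site, in the promoter of the neighbouring neuropeptide gene flp-13, and 3.03 would be expected from the genome.

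ipp-5 (WBGene00002146) encodes an inositol polyphosphate 5-phosphatase, which removes IP3. It lies on the + strand at chrX:6031469-6034515, the shortest gene of the 5, with 8 exons and 1 annotated 5' end. Its locus held no pooled region, 6 of replicate 1 and 7 of replicate 2, beside 0.459, 3.9 and 3.82 expected. The nearest pooled summit was 6334 bp from the gene body, at rank 1761. The best replicate 2 region, chrX:6034248-6034611 (rank 1808, signal 12.4), had its summit in the 3' UTR, and a second one, chrX:6030999-6031362, was 288 bp upstream of the 5' end at rank 6831. The nearest replicate 1 summits were 727 bp and 745 bp from these. Replicate 1 had its best rank of the locus, 6471, at the 5' UTR of the neighbouring small heat shock protein gene hsp-25, outside ipp-5. The 1 place where the libraries had summits within 200 bp, 159 bp apart, was also in hsp-25, at ranks 17454 and 13787, so in ipp-5 itself no region was shared. The only AP-1 consensus site of the locus lay in coding exon 3, 1828 bp and 1083 bp from the nearest summits of replicates 1 and 2. It is given on the + strand with the site in capitals, as the only one in the locus.
ipp-5 exon 3, chrX:6032261-6032267: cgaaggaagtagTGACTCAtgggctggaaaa

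lfe-2 (WBGene00002979) encodes an IP3 3-kinase, which also lowers IP3 by phosphorylating it. It lies on the + strand at chrI:5027155-5041160, with 10 exons and 6 transcripts, each with a 5' end of its own. Its locus held 4 pooled regions, 10 of replicate 1 and 12 of replicate 2, beside 0.844, 7.18 and 7.02 expected. Of the pooled regions, 3 lay in the gene body and 1 upstream of it.

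The strongest was chrI:5038225-5038568 in intron 5, at rank 1079 with a signal of 21.7 and a −log10 q-value of 0.325. Replicate 1 had its best rank of the locus there, 1836 with a signal of 11.7, 107 bp from the pooled summit, and replicate 2 had rank 1319 and a signal of 13.2, 3 bp from it. The summits of the libraries were 110 bp apart, which made this the only place in the 5 loci where both libraries ranked that high and the pooled list also had a region. The next, chrI:5037229-5037572 (rank 1886, signal 19), lay in the first part of a shorter transcript, 247 bp downstream of the 5' end at position 5037154. The replicate 2 summit 169 bp from it had rank 366, a signal of 17.2 and a −log10 q-value of 1.38, the only one of all regions of the 5 loci that reached 1.3. That is also the highest value on this scale in the replicate 2 list, in which 418 regions reached 1.3. The nearest replicate 1 summit, 92 bp from the pooled summit, had rank 8416. It lay 261 bp from that replicate 2 summit, so the libraries did not match each other within 200 bp there.

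The other lfe-2 regions were weaker in the pooled list. chrI:5033069-5033412 in intron 4 had rank 2616 and a signal of 17.7, with a replicate 2 summit 75 bp away at rank 840 and no replicate 1 summit within 445 bp. chrI:5025576-5025919, in intergenic sequence 1407 bp upstream of the first 5' end, had rank 2926 and a signal of 17.3. Replicate 1 had a summit 67 bp from it at rank 27673 and another 139 bp from it at rank 2095, whereas the nearest replicate 2 summit was 757 bp away. Of the 4 pooled regions of lfe-2, 2 thus had a summit of both libraries within 200 bp of the pooled summit. They lay 247 bp and 1243 bp past the 5' end of the shorter transcript. Only at the latter were the summits of the libraries also within 200 bp of each other.

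**Figure D2:**
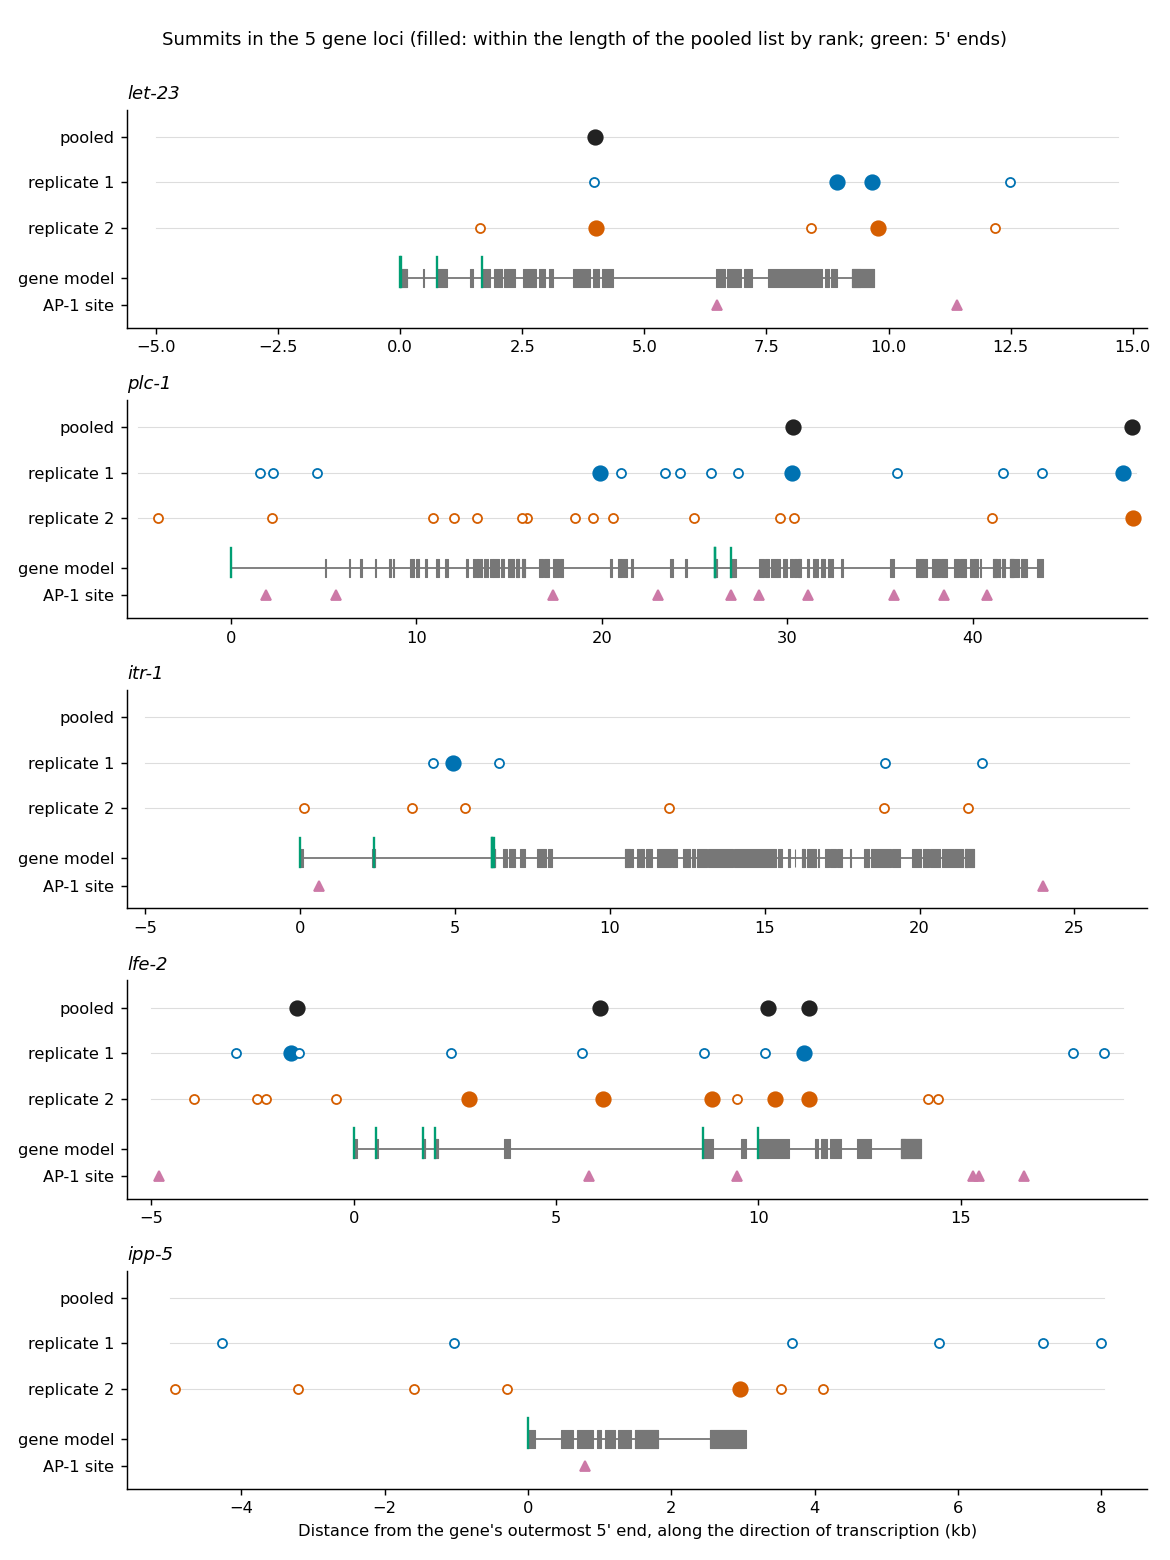
Gene models of the 5 loci with the summits of the pooled list and of replicates 1 and 2 and the AP-1 consensus sites, against distance from the gene's outermost 5' end. Distances are in kb, circles stand for summits (filled where the rank is within the number of pooled regions), triangles for AP-1 sites and green bars for annotated 5' ends. The 3 pooled summits inside lfe-2, the single one in let-23 and the single one in plc-1 lie within the genes, and itr-1 and ipp-5 have none.

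The best rank of each locus was set against those of all genes. In the pooled list 8.0% of all protein-coding genes had a best rank at or above that of let-23, 12.5% at or above that of lfe-2 and 24.3% at or above that of plc-1. In replicate 1 these shares were 9.03% for let-23, 19.7% for lfe-2, 13.1% for plc-1, 24.6% for itr-1 and 52.7% for ipp-5. In replicate 2 they were 16.8% for let-23, 4.34% for lfe-2, 7.97% for plc-1, 39.8% for itr-1 and 19.4% for ipp-5. Over genes with a region, the median best rank was 1540 in the pooled list, 5620 in replicate 1 and 5570 in replicate 2, so let-23 and lfe-2 ranked better than the median in all 3 lists and plc-1 ranked worse in the pooled list. The plc-1 values of the pooled list and of replicate 2 rest on the region in vap-2. Inside plc-1 itself the best rank was 2426 in the pooled list and 5967 in replicate 2, the latter also worse than the median of 5570. The let-23 values rest on different places. Those of the pooled list and replicate 2 are in exon 11, and that of replicate 1 is in intron 18. At the exon 11 region replicate 1 had rank 9170, worse than its median of 5620. The lfe-2 value of replicate 2 likewise rests on another place than those of the pooled list and replicate 1. The ipp-5 value of replicate 1 rests on the summit in the 5' UTR of hsp-25. The order of the genes differed between the libraries: let-23 ranked first in replicate 1, lfe-2 ranked first in replicate 2, and ipp-5 and itr-1 exchanged the last places. A longer locus holds more regions and so tends to a better best rank, which these shares do not correct for. With 1 value a library, the differences between the genes cannot be set against a replicate error.

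**Figure D3:**
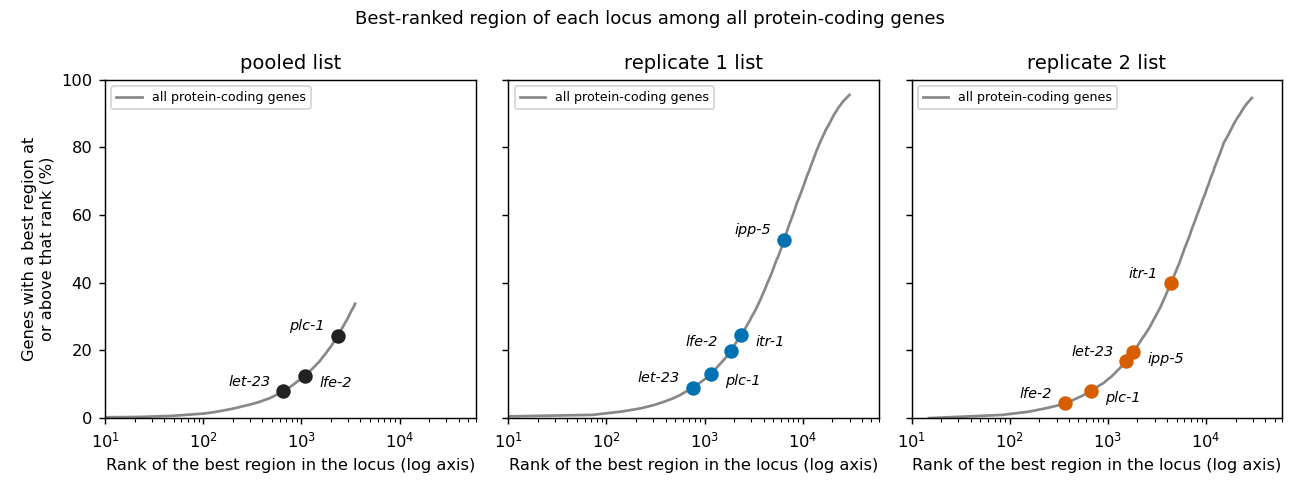
Share of all 19973 protein-coding genes (vertical axis, %) whose best region ranks at or above a given rank (horizontal log axis), in 1 panel for the pooled list and 1 for each replicate, as a grey line. Points mark the best region of each locus, and itr-1 and ipp-5 have no point in the pooled panel. The lowest point, and so the best rank, is lfe-2 in replicate 2 at 4.34% of genes and let-23 in replicate 1 at 9.03%.

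The libraries shared few summits at these loci. Of 39 replicate 1 summits, 7 (17.9%) had a replicate 2 summit within 200 bp, beside 7085 of 30000 (23.6%) in the whole list, and 11.4% of the nuclear genome lies that close to a replicate 2 summit. Each locus had at least 1 such pair, with 2 each in let-23 and plc-1, and the only one in the ipp-5 locus lay in hsp-25. Of the 7 pooled regions, 4 (57.1%) had a summit of both libraries within 200 bp of the pooled summit, beside 73.9% of the pooled list. In 1 of these, at lfe-2, the summits of the libraries were 261 bp from each other. The pooled list was made from both alignments, so a match with it is partly built in. A replicate 2 summit lay within that distance of 6 (85.7%) and a replicate 1 summit of 5 (71.4%), beside 88.5% and 84.9% of the pooled list. When each library was limited to as many regions as the pooled list, by rank, 8 of replicate 1 and 9 of replicate 2 lay in the 5 loci. For a list of that length 5.01 would be expected. No interval was computed for these counts. Of the 9 of replicate 2, 5 were at lfe-2, and both counts include a summit in vap-2.

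Gene bodies make up much of the 5 loci, and the counts inside them were near those expected from density: 5 pooled regions beside 3.25, 25 of replicate 1 beside 27.6 and 29 of replicate 2 beside 27.0. Places are given for the 5 loci only, with no share of all summits beside them, so they do not set these loci apart. Of the pooled summits 3 were in coding exons, 3 in introns and 1 in intergenic sequence, and none was in a promoter of its gene. The closest to one was the lfe-2 summit 247 bp past a 5' end, outside the limit of 200 bp. In replicate 1, 20 of 39 summits were in introns and 4 in a promoter of the gene, 2 of them at lfe-2 and the others at plc-1 and itr-1. In replicate 2, 21 of 45 were in introns and 6 in such a promoter, 2 at lfe-2, 2 at itr-1, 1 at let-23 and 1 at ipp-5. The best ranked of these 10 promoter summits was the itr-1 summit of replicate 2 at rank 4371. None of the 10 had a summit of the other library within 200 bp, the closest being 211 bp apart at lfe-2.

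Few summit windows of any list held an AP-1 consensus site, at the 5 loci as in the whole lists. None of the 7 pooled windows of 201 bp held TGAGTCA or TGACTCA (exact 95% interval up to 41.0%), beside 3.01% of all pooled windows and 8.06% of the 248 IDR windows, so at 7 windows a share like either could not have been told from 0. None of 39 replicate 1 windows (up to 9.03%) and 1 of 45 replicate 2 windows (2.22%, 0.0562 to 11.8%) held a site, beside 2.1% and 2.28% of those lists. The single one lay in intron 4 of lfe-2 at chrI:5036619-5036625, 5 bp from a replicate 2 summit of rank 9990, with the nearest replicate 1 summit 687 bp and the nearest pooled summit 779 bp from the site. The looser spelling TGANTCA, found in 7.94% of all pooled windows, was also absent from the let-23 and plc-1 windows printed above. None of the 20 windows of 201 bp that end at an annotated 5' end of the 5 genes held TGAGTCA or TGACTCA, beside 2.5% of such windows of all protein-coding transcripts. These are matches of letters only, and their absence from a window says nothing of whether FOS-1 was bound there.

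The loci themselves were not short of sites. They held 21, beside 13.6 expected from the genome, of which the locus of plc-1 had 10, of lfe-2 6, of let-23 2, of itr-1 2 and of ipp-5 1. Of the 21, 15 lay in the gene bodies, and only 2 of the 6 at lfe-2 did. By place, 9 of the 21 were in coding exons, some of them of genes next to lfe-2, 8 in introns, 3 in intergenic sequence and 1 in a 5' UTR. A replicate 2 summit lay within 100 bp of 1 of the 21, and no replicate 1 or pooled summit did, beside 7.45%, 7.03% and 1.2% of all sites of the genome. The median distance to the nearest summit was 5320 bp in the pooled list, 1130 bp in replicate 1 and 1080 bp in replicate 2.

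**Figure D4:**
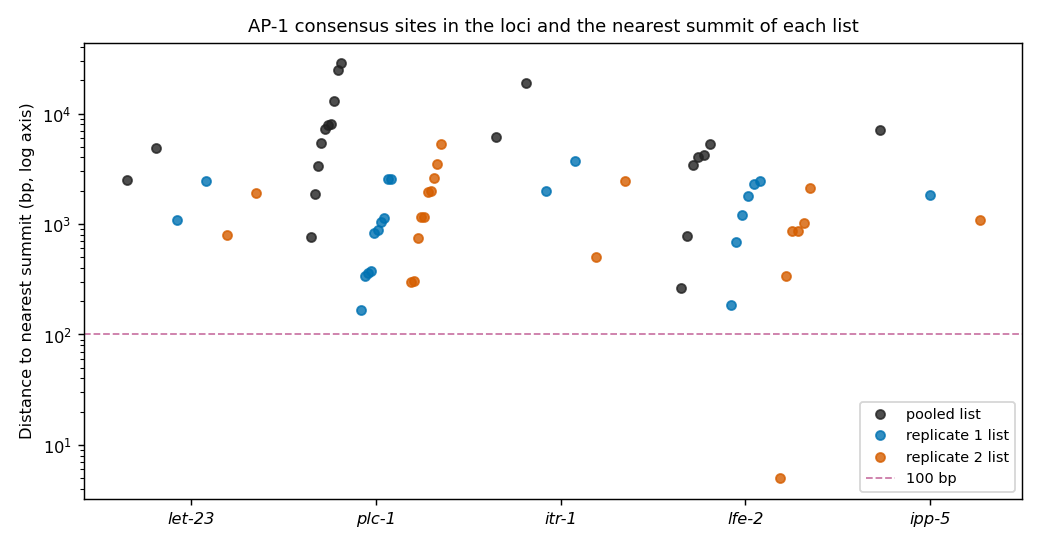
Distance in bp (log axis) from each of the 21 AP-1 consensus sites in the 5 loci to the nearest summit of the pooled list, replicate 1 and replicate 2, 1 point a site. The line marks 100 bp. A single site, in lfe-2, lies closer than that, to a replicate 2 summit 5 bp away.

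Genes of the wider pathway were read in the same way from 4 lists, of which 74 genes had a position. Of these, 43 (58.1%) had a pooled region, beside 33.8% of all genes, and 5 (6.76%) had an IDR region, beside 3.46%. Their loci were longer, with a median of 17381 bp beside 12027 bp, and held 85 pooled regions beside 51.6 expected. By list these were 13 beside 9.02 expected in EGF signalling and 24 beside 12.2 in phospholipase C and inositol phosphate metabolism. Calcium stores and entry had 21 beside 11.3, and spermatheca contractility and ovulation 27 beside 19.1. The shares of genes below are not corrected for locus length. Those with an IDR region included egl-30, ocrl-1, cmd-1 and crt-1. Not all of these regions were at the gene itself: that of ocrl-1 was in one of its introns but also in the promoter window of eat-16, that of cmd-1 was intergenic, 4897 bp from a 5' end of cmd-1, and that of crt-1 lay in smut-1.

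In EGF signalling 9 of 14 genes had a pooled region and none an IDR region. The best ranks were 392 at ptp-2, a tyrosine phosphatase gene whose region lay in its neighbour cgt-3, 560 at lin-3, the ligand of LET-23, 963 at soc-1 and 1025 at lin-7, which helps to place LET-23 in the membrane. The regions of lin-3 and soc-1 were intergenic, 9246 bp and 1297 bp from the nearest 5' end of their gene. The nearest replicate 1 summits were 1080 bp from the lin-3 region and 1193 bp from the soc-1 region. The lin-3 locus differed between the libraries, with 3 regions in replicate 1 and 21 in replicate 2. In phospholipase C and inositol phosphate metabolism 14 of 18 had a pooled region and 2 an IDR region. egl-30, the G protein alpha subunit that acts on the phospholipase C-beta EGL-8, had pooled rank 159 in a promoter window that it shares with C53H9.4, with a signal of 35.2. ocrl-1, an inositol 5-phosphatase gene, followed at 217, egl-8 at 556 and plc-4, a phospholipase C-delta gene, at 738. The plc-4 region was intergenic, 4602 bp from the nearest plc-4 5' end.

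In the list of calcium stores and entry 7 of 15 had a pooled region, with cmd-1, which encodes calmodulin, at rank 91 (signal 43.2), crt-1, calreticulin, at 240, unc-43, the calcium and calmodulin-dependent kinase II, at 428 and tax-6, calcineurin A, at 900. The tax-6 region was intergenic, 3598 bp from the nearest tax-6 5' end. In the list of spermatheca contractility and ovulation 13 of 27 had one, among them jun-1 at rank 410 and toca-2 at 529. The region at lin-7 lay inside the neighbouring gene agl-1. The jun-1 region, at the gene for a Jun partner, lay 89 bp from an annotated 5' end and held 1 AP-1 site, and summits lay 5 bp from it in replicate 1 (rank 8637) and at the same base in replicate 2 (rank 137). It thus had a promoter position, a site and a summit of both libraries together, which no region of the 5 named loci had. The ranks in the libraries were very different, however, and no share of all pooled regions with these features together is given. The fos-1 locus itself had 0 regions in all 4 lists, in 22487 bp where 0.791 pooled, 6.73 replicate 1 and 6.58 replicate 2 regions would be expected from density, and the reason was not tested.

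Outside the 5 loci, the nearest IDR summits lay 22566 bp from the plc-1 gene body (near sma-9), 57681 bp from ipp-5 (near hsp-3), 75789 bp from let-23, 281259 bp from itr-1 and 390156 bp from lfe-2. lfe-2, which had the most pooled regions for its length, was the farthest of the 5 from a region of the strict set. That set holds only 1 region per 404325 bp of the nuclear genome, and these distances were not set against those of other genes.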

How the data were processed

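Regions were called by the authors, with a peak caller, an aligner and an IDR threshold not given in the sources used here. The file list that came with the deposited samples gives how each list was made: a replicate list from 1 alignment against a control alignment shared by both replicates, the pooled list from both alignments, and the IDR set from these lists. The signal of a region and its −log10 q-value are the authors' deposited values, of unknown scale, and were used only to describe, rank or filter regions within a list. No read counts were used, the depth of each library is unknown, and precision is that of the number of regions. The lists on ce11 were used, and those on ce10 were not used here. No list from an untagged strain was used.

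Genes, places and sequences came from the WBcel235 reference (the same assembly as ce11) with Ensembl annotation release 115. Summits were assigned to gene bodies and 5000 bp to each side, and 18 mitochondrial regions of replicate 2 were left out of densities. Expected counts are a list's nuclear summits per bp over 100272607 bp times the locus length. Summits matched within 200 bp, and motifs were searched within 100 bp to each side of a summit. Intervals were exact Poisson or Clopper-Pearson at 95%. Counting was tested on simulated data, with Python 3.11.15, numpy 2.4.6, pandas 2.3.3, scipy 1.17.1 and matplotlib 3.10.9.

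The 5 genes and the wider lists were chosen with earlier results of these data known. The genes named were the 5, fos-1, jun-1, up to 4 of each wider list by best pooled rank, and genes at the best pooled region of a locus, and cgt-3, agl-1, smut-1, eat-16, ZK1067.4, C53H9.4, flp-13, hsp-25, sma-9 and hsp-3 were named after their values were seen, as neighbours. Of the genes this rule names in the wider lists, 2 are not reported here. cil-1 of the wider lists had no match in the annotation. With 1 group there is no profile across conditions, so no genes of like pattern were named. Alternatives were other flanks, match distances, motif windows, a q-value filter, the replicate lists limited to the length of the pooled list, and leaving out each replicate.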

Additional observations from a re-analysis of the deposited data

How the results depend on the processing

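Of 45 recomputed values 31 were within 1.5 times the reported one and 14 moved by more. No IDR region lay in the loci with any flank tried, and no pooled window held an AP-1 consensus site under any alternative. With 10000 bp to each side in place of 5000, all 5 genes had a pooled region and there were 12 pooled regions, beside 6.76 expected from density, 7 of them matched in both libraries. itr-1 then had a best pooled rank of 1388 and ipp-5 of 583, by construction, since the wider flank takes in neighbouring regions. The share of all genes with a pooled region at 10000 bp was not computed, so this count does not set the 5 genes apart. With no flank, replicate 1 had 25 regions and replicate 2 had 29. With a −log10 q-value of at least 1.3, 0 genes, 0 pooled regions and 0 replicate 1 regions remained and 1 replicate 2 region, at lfe-2. With 100 bp as the match distance 2 pooled regions matched both libraries and 4 replicate 1 summits matched replicate 2, and with 500 bp 15 did. With each library limited to the length of the pooled list the numbers were 1 and 2. Matching pooled regions with 1 library only, leaving out the other, gave 5 to 6 in place of 4. No paired analysis was possible because both replicates belong to 1 group and no test between groups was made.

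All regions of the 5 loci but 1 were below a −log10 q-value of 1.3, in the part of the lists that holds background. With 7 pooled regions a share of 0 has an upper limit of 41.0%. Apart from the changes explained by the wider or narrower flank, filter or distance itself, the cause was not tested.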
